A study of Mus musculus with 8 samples.

Results

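Lmx1a, Lmx1b, Otx2, Msx1, Msx2, Zic1, Zic2 and Zic4 encode transcription factors of the roof plate, the dorsal midline of the embryonic neural tube. They were chosen by name as a group of roof plate and choroid-specifying factors, and 8 of 8 were found among the 23284 genes of the count table. All 8 were among the 15698 genes that passed a filter on low counts, although Lmx1b passed through its hindbrain libraries alone. The libraries came from choroid plexus, the tissue in the brain's ventricles that makes cerebrospinal fluid, of mouse embryos at stage E18.5. Hindbrain sorted cells were Ttr::RFP+ epithelial cells purified by fluorescence-activated sorting from the choroid plexus of the fourth ventricle, and telencephalic sorted cells were the same cells from the lateral ventricles. Hindbrain whole tissue and telencephalic whole tissue were the entire plexus of those 2 regions. Sorted cells carried a red fluorescent reporter of Ttr, the transthyretin gene that the choroid epithelium expresses strongly, and were labelled ICR (CD1), whereas whole tissue was labelled CD1. Each of the 4 groups held 2 biological replicates, and both regions of a replicate came from the same brains. Whether embryos were pooled is not given in the sources used here. Sorted and whole samples, which differ in strain label, are taken to come from different brains, so sorting, reporter, strain label and brain cannot be told apart.

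The choroid plexus epithelium arises from the dorsal midline of the hindbrain and from the edge of the cortical hem in the telencephalon, where roof plate cells secrete BMP and Wnt signals. In mice, Lmx1a is needed to form the roof plate, and Lmx1b is its close LIM-homeodomain relative. Otx2 is a homeodomain factor needed for choroid plexus development and upkeep, Msx1 and Msx2 are homeodomain repressors induced by BMP signals, and the Zic genes encode zinc finger factors of the dorsal neural tube.

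Total counts were 26710018 and 29231556 in hindbrain sorted cells, 31613434 and 18562464 in telencephalic sorted cells, 21932900 and 18947870 in hindbrain whole tissue, and 15583831 and 8849053 in telencephalic whole tissue. A count of 3, taken as the floor of detection, corresponded to 0.109 to 0.314 CPM, the unit of counts relative to the scaled library size. Replicates differed by more than counting noise, most of all the hindbrain sorted pair. The 12 choroid epithelial markers were detected in every group, and their summed level was 172000 to 223000 CPM in hindbrain sorted cells, 269000 to 293000 CPM in telencephalic sorted cells, 150000 to 152000 CPM in hindbrain whole tissue and 180000 to 196000 CPM in telencephalic whole tissue. Transthyretin itself made up most of each sum, with mean levels of 185000, 269000, 140000 and 180000 CPM in the same order of groups. Of the 12 epithelial markers 3 were called higher and 2 lower in hindbrain sorted cells against telencephalic sorted cells. Markers of other cells were present in the sorted libraries. Summed endothelial markers, with counts for 8 of 8 although Cldn5 had only 2 and 1 counts in the hindbrain and telencephalic sorted groups, were 156 to 157 CPM in hindbrain sorted cells and 113 to 122 CPM in telencephalic sorted cells, against 605 to 644 CPM and 571 to 599 CPM in whole tissue of the same regions. Kdr alone averaged 78.4 CPM in hindbrain sorted cells and 97.5 CPM in telencephalic sorted cells, so these sums do not measure the endothelial share. Pecam1 averaged 1.79 and 0.785 CPM in the same sorted groups, against 61.4 and 62 CPM in whole tissue. All 8 of these markers were called lower in sorted cells of both regions. Summed mural markers (8 of 8 detected) were 264 to 293 CPM in hindbrain sorted cells and 68.3 to 75.9 CPM in telencephalic sorted cells, against 375 to 456 CPM and 395 to 417 CPM in whole tissue. Summed macrophage markers (8 of 8 detected) were 127 to 162 CPM in hindbrain sorted cells and 27.7 to 53.3 CPM in telencephalic sorted cells, against 145 to 155 CPM and 121 to 138 CPM in whole tissue, and summed stromal markers (13 of 13 detected) were 1120 to 1470 CPM and 683 to 704 CPM, against 1430 to 1590 CPM and 1030 to 1200 CPM. Within the stromal sums Pdgfra alone averaged 394 CPM in each sorted group, 364 CPM in hindbrain whole tissue and 400 CPM in telencephalic whole tissue. Each of the 4 sums (endothelial, mural, macrophage and stromal) was higher in hindbrain sorted cells than in telencephalic sorted cells. The hindbrain sorted sums of macrophage and stromal markers overlapped those of hindbrain whole tissue.

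Of the 8 genes, 7 were expressed in every library and did not pass the test for region, and 1, Lmx1b, was detected above the floor in hindbrain libraries only. Within a group, levels per kilobase of the longest coding transcript placed Otx2 first, at 225 ± 24 CPM per kb in hindbrain sorted cells, 229 ± 5.4 in telencephalic sorted cells, 200 ± 0.088 in hindbrain whole tissue and 193 ± 13 in telencephalic whole tissue (SD, n = 2 each). In hindbrain sorted cells Lmx1a (28.7 ± 1.3), Zic2 (27.2 ± 0.28) and Zic1 (25.9 ± 2.1) followed on the same CPM per kb scale. These 3 neighbours in the order lay close to the spread between replicates, and with the next shorter coding transcript Zic1 would stand at 51.7 CPM per kb, above both. Msx1 (18.9 ± 0.24) and Zic4 (17.5 ± 1.4) came next, with no gap beyond the spread of Zic4, and Msx2 (7.85 ± 1.8) and Lmx1b (1.53 ± 0.18) stood last. In hindbrain whole tissue Zic4 (21 ± 1.2 CPM per kb) stood above Msx1 (15.3 ± 0.24), and likewise in telencephalic whole tissue (23.5 ± 0.37 and 14.3 ± 0.77). With its next shorter coding transcript Zic4 would stand at 26.9 and 26.3 CPM per kb in hindbrain and telencephalic sorted cells. That is above Msx1 (18.9 and 20.2) there too, so the order of Zic4 and Msx1 in sorted cells depends on the length used. The plot of the level in each library shows 7 genes present in all 8 libraries and the gap in Lmx1b.

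**Figure D1:**
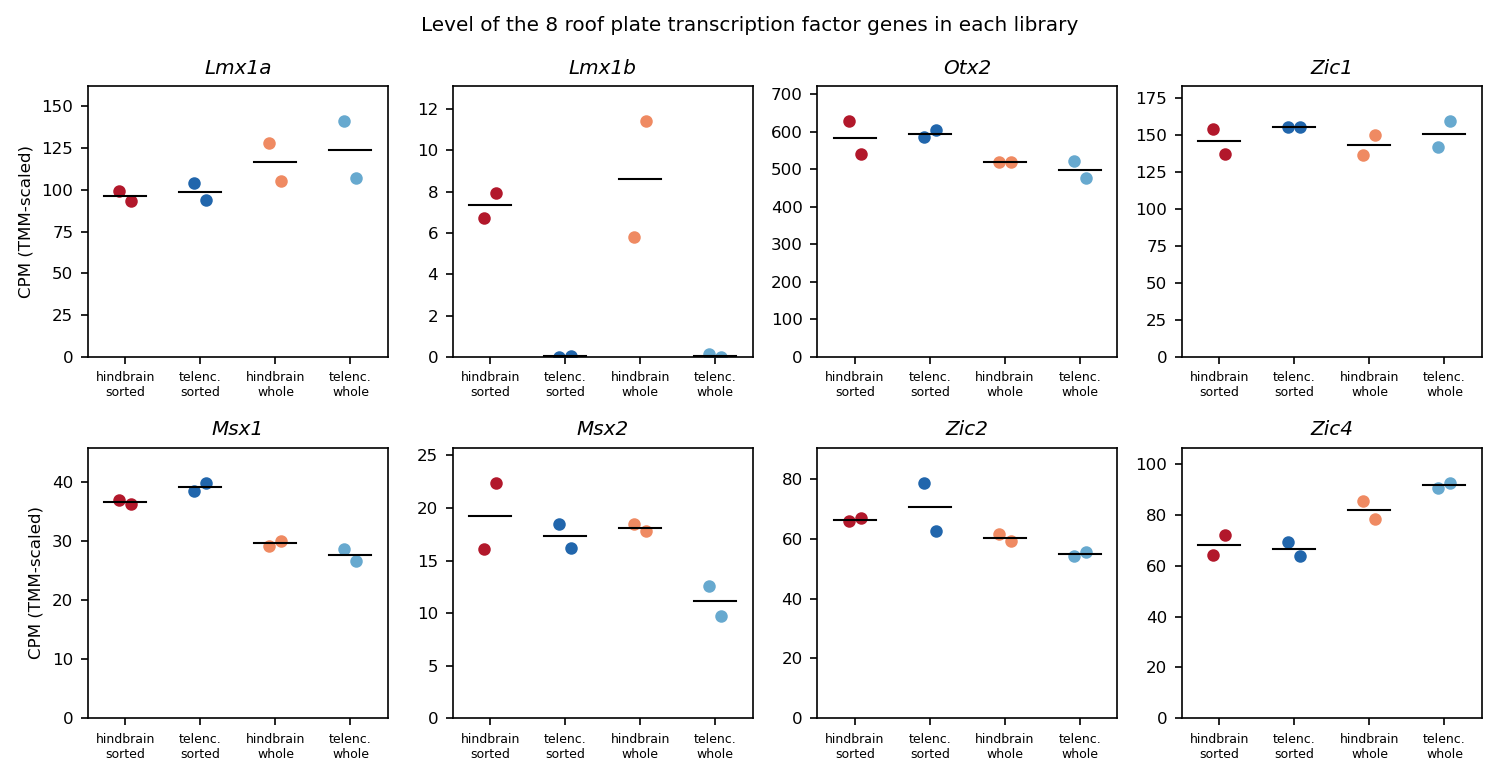
Level of each of the 8 genes in each library, in TMM-scaled CPM, with points for the 2 libraries of a group and a line at their mean. Lmx1b lies between 5.81 and 11.4 CPM in the 4 hindbrain libraries and at 0.122 CPM or less in the 4 telencephalic libraries, while each of the other genes is expressed in all 8.

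Lmx1b had 185 and 216 counts in hindbrain sorted cells, against 0 and 1 count in telencephalic sorted cells. In whole tissue it had 144 and 242 counts in hindbrain, against 2 and 0 counts in telencephalic libraries. Every hindbrain library stood above every telencephalic library, and the telencephalic values lay at or under the floor of 3 counts. In CPM the hindbrain libraries held 6.73 and 7.93 (sorted) and 5.81 and 11.4 (whole), so the highest and lowest hindbrain libraries were both whole tissue. The ratio of summed counts per library size, hindbrain over telencephalic, was 312 in sorted cells, with a 95% exact counting interval of 55.6 to 12300. In whole tissue the ratio was 109 (29.9 to 901). By the quasi-likelihood F test of edgeR, with p-values adjusted over all genes by Benjamini-Hochberg, Lmx1b was called in sorted cells (log2 fold change 7.95 ± 0.73 SE, adjusted p = 1.61e-05) and in whole tissue (6.71 ± 0.68 SE, adjusted p = 9.13e-05). It passed the filter on low counts through its hindbrain libraries alone and so had to differ, and these calls add nothing to the counts. The fitted folds rest on 1 and 2 telencephalic counts and are no bounds: without the telencephalic sorted replicate 1 or 2 the first became 6.75 or 10.32, and without the telencephalic whole replicate 1 or 2 the second became 10.55 or 6.07, with adjusted p of 0.00386 or below in each.

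Lmx1a, by contrast, had 99.2 and 93.0 CPM in hindbrain sorted cells, against 104 and 93.6 CPM in telencephalic sorted cells. Whole tissue held 128 and 105 CPM in hindbrain, against 141 and 107 CPM in telencephalic samples. The regions overlapped in both preparations. The region difference was -0.04 ± 0.15 log2 units in sorted cells (95% interval -0.36 to 0.28, edgeR adjusted p = 0.9) and -0.10 ± 0.15 in whole tissue (-0.41 to 0.22, adjusted p = 0.834). In a library, Lmx1b gave 6.78 and 8.52 counts per 100 counts of Lmx1a in hindbrain sorted cells, against 0 and 0.0662 in telencephalic sorted cells. Hindbrain whole tissue gave 4.55 and 10.9, against 0.0868 and 0 in telencephalic whole tissue. This ratio does not depend on library scaling, and it separated the regions in both preparations. Its separation rests on the same few telencephalic counts of Lmx1b as above, so the ratio is no evidence apart from those counts.

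The windows around the starts of Lmx1a and Lmx1b, from 250 bases before to 50 bases after the start, are shown because these paralogues differed in regional pattern in the same samples. They are RefSeq sequences of GRCm38.p6, a later build than the mm9 used for the counts, at chr1:167689308-167689607 (plus strand) and chr2:33641049-33641348 (minus strand), printed 5′ to 3′ along each gene. Capitals mark matches, on either strand, to 1 of 7 letter strings. These were the OTX string TAATCC, the homeodomain string TAATTA, the MSX string CAATTA, the MEIS string TGACAG, the HOX-PBX string TGATTGAT, the CCAAT box and the ZIC string CAGCAGG. Overlapping matches were each counted.
Lmx1a: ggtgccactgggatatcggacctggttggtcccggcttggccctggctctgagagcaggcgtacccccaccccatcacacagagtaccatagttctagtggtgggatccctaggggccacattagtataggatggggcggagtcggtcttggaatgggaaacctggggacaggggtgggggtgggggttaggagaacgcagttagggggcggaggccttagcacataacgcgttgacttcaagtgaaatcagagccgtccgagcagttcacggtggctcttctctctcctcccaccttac
Lmx1b: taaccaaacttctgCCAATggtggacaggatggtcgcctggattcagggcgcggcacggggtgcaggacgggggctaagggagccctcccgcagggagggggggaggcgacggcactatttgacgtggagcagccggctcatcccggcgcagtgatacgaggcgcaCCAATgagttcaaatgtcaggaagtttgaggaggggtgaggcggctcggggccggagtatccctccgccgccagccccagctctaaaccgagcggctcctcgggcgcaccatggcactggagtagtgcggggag
Lmx1b held 2 CCAAT boxes, a string found in 37.4% of the 32817 promoter windows of the table, and none of the other strings. No string was found in the Lmx1a window, where they are found in 7.06% (OTX), 5.3% (homeodomain), 8.0% (MSX), 19.2% (MEIS), 0.747% (HOX-PBX) and 10.5% (ZIC) of all windows. The Lmx1b window was the more GC-rich, with 65.7% GC and 24 CpG pairs, against 59.3% and 12 in the Lmx1a window and medians of 52.7% and 7 over all windows. These letter matches are a description and name no bound factor.

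Otx2 did not pass the test for region. It had 628 and 541 CPM in hindbrain sorted cells, against 585 and 604 CPM in telencephalic sorted cells. Whole tissue had 519 and 519 CPM in hindbrain, against 522 and 476 CPM in telencephalic samples. The region values overlapped in both preparations, with differences of -0.02 ± 0.11 log2 units in sorted cells (95% interval -0.27 to 0.22, edgeR adjusted p = 0.923) and 0.06 ± 0.11 in whole tissue (-0.19 to 0.30, adjusted p = 0.883). Its relative Otx1, a homeodomain factor of the developing forebrain, gave 0.672 and 0.434 counts per 100 counts of Otx2 in hindbrain sorted cells, against 6.64 and 5.77 in telencephalic sorted cells. In whole tissue it gave 0.466 and 0.601 per 100 in hindbrain, against 5.47 and 5.2 in telencephalic libraries. The proportion of Otx1 to Otx2 therefore separated the regions, on the side opposite to Lmx1b.

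Msx1 had 36.9 and 36.3 CPM in hindbrain sorted cells, against 38.4 and 39.8 CPM in telencephalic sorted cells, a log2 difference of -0.10 ± 0.12 (95% interval -0.37 to 0.17, edgeR adjusted p = 0.678). In whole tissue it had 29.2 and 29.9 CPM in hindbrain, against 28.7 and 26.6 CPM in telencephalic samples (0.09 ± 0.13, interval -0.19 to 0.37, adjusted p = 0.817). Msx1 was thus not called by region, and every sorted library stood above every whole library. Msx2, its less abundant paralogue, had 16.1 and 22.4 CPM in hindbrain sorted cells, against 18.53 and 16.2 CPM in telencephalic sorted cells (0.14 ± 0.19, interval -0.27 to 0.56, adjusted p = 0.686). In whole tissue Msx2 had 18.47 and 17.8 CPM in hindbrain, against 12.6 and 9.75 CPM in telencephalic samples. Those whole-tissue groups did not overlap, but the log2 difference of 0.68 ± 0.20 (interval 0.24 to 1.13) missed the threshold (edgeR adjusted p = 0.076). With brain as a replicate block the difference was 0.70 and passed (adjusted p = 0.0486), and it passed in 7 of 15 alternative settings in all (range 0.52 to 0.90). Telencephalic whole tissue was the group with the lowest Msx2. The reads carried no strand, so Msx1 counts cannot be told apart from its antisense RNA Msx1as where the genes overlap. Counts assigned to Msx1as were 41.9 to 63 per 100 counts of Msx1 over the 8 libraries, and those assigned to Otx2os1, antisense to Otx2, were 2.81 to 4.1 per 100 counts of Otx2.

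Zic1 varied least of all, between 136 and 159 CPM over the 8 libraries, a span of 1.17-fold. It had 154 and 137 CPM in hindbrain sorted cells, against 155 and 155 CPM in telencephalic sorted cells, and 136 and 150 CPM in hindbrain whole tissue, against 142 and 159 CPM in telencephalic whole tissue. Zic2 had 65.9 and 66.9 CPM in hindbrain sorted cells, against 78.7 and 62.7 CPM in telencephalic sorted cells, and 61.7 and 59.1 CPM in hindbrain whole tissue, against 54.3 and 55.7 CPM in telencephalic whole tissue. The telencephalic sorted pair of Zic2 spanned its hindbrain sorted pair, and its whole-tissue regions did not overlap. Zic4 had 64.3 and 72.1 CPM in hindbrain sorted cells, against 69.2 and 63.9 CPM in telencephalic sorted cells, and 85.3 and 78.5 CPM in hindbrain whole tissue, against 90.5 and 92.6 CPM in telencephalic whole tissue. None of these 3 genes was called between regions: their log2 differences lay between -0.09 and 0.04 in sorted cells and between -0.16 and 0.14 in whole tissue, with edgeR adjusted p of 0.58 to 0.89. The widest of the 95% intervals on these differences reached from -0.37 to 0.18 in sorted cells and from -0.15 to 0.42 in whole tissue, both for Zic2.

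Zic1 and Zic4 lie side by side on chromosome 9 and are read in opposite directions, with starts 3204 bases apart in GRCm38.p6. Their start windows, at chr9:91365719-91366018 (minus strand) and chr9:91368722-91369021 (plus strand), are shown because Zic4, and not its neighbour Zic1, was called between telencephalic preparations. That call depended on single libraries, and the difference between the 2 genes was not tested. The windows are a description only. Capitals mark the same letter strings as above.
Zic1: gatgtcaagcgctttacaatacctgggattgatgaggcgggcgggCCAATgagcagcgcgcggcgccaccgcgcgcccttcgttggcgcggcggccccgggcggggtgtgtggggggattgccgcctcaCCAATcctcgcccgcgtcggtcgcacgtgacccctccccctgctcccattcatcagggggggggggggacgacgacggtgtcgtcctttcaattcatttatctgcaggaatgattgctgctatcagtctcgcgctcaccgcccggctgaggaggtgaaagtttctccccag
Zic4: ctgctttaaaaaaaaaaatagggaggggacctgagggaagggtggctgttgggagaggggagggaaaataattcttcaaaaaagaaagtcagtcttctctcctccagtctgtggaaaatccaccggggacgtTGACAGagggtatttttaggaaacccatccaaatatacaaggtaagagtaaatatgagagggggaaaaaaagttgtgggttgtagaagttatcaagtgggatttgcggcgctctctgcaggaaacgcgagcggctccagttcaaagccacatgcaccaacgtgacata
The Zic1 window held 65.3% GC, 31 CpG pairs and 2 CCAAT boxes, and the Zic4 window held 46.0% GC, 8 CpG pairs and 1 MEIS string. Zic4 gave 41.9 and 52.6 counts per 100 counts of Zic1 in hindbrain sorted cells, 44.6 and 41.2 in telencephalic sorted cells, 62.7 and 52.4 in hindbrain whole tissue and 63.6 and 58.3 in telencephalic whole tissue. The telencephalic ratios were lower in sorted cells than in whole tissue without overlap, while the hindbrain ratios met at 52.6 and 52.4. In the GENCODE M21 annotation these genes overlap on opposite strands, and without strand their counts are uncertain where they do. The plot of ratios within a library sets Zic4 per Zic1 beside the Lmx1, Otx and Msx1 to Zic4 ratios.

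**Figure D2:**
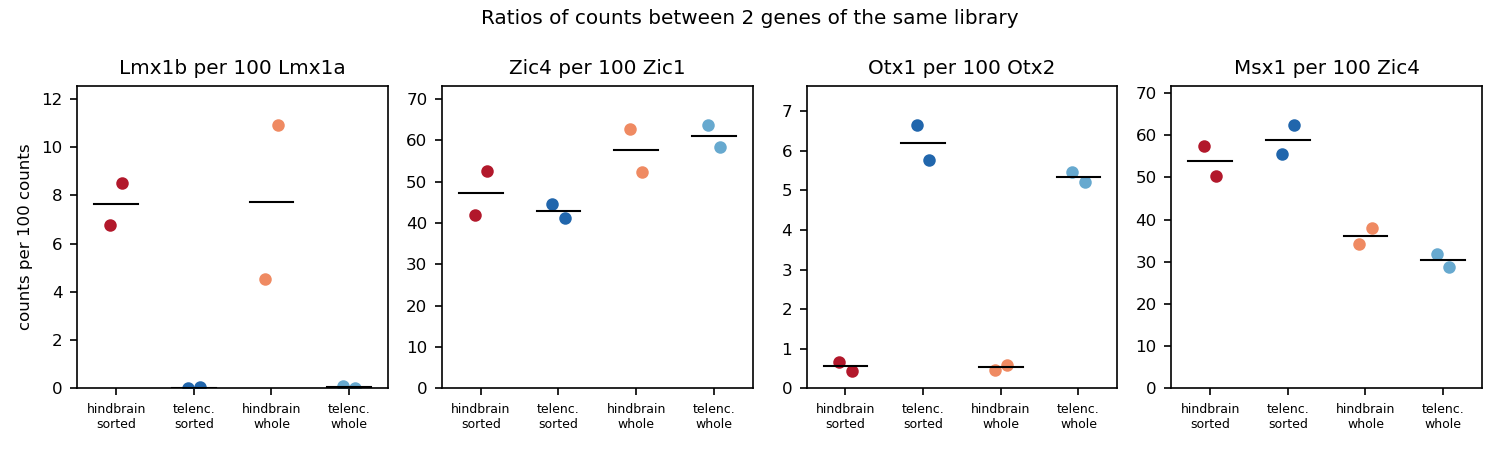
Counts of one gene per 100 counts of another in the same library, with points for the 2 libraries of a group and a line at their mean. Lmx1b per Lmx1a is higher in hindbrain libraries and Otx1 per Otx2 in telencephalic libraries, Zic4 per Zic1 is 41.2 to 52.6 in sorted cells against 52.4 to 63.6 in whole tissue, and Msx1 per Zic4 is 50.3 to 62.3 in sorted cells against 28.8 to 38.1 in whole tissue.

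Between regions, then, 1 of the 8 genes was called in sorted cells, Lmx1b, which had to differ once it had passed the filter, and 0 of the other 7. Over all genes tested 15.2% were called in that comparison, 9.06% higher and 6.12% lower, so that 1 of 8 lies near the background share. In whole tissue the same gene was called, against 5.79% of all genes (3.34% higher and 2.45% lower), and with brain as a replicate block 2 of the 8 were called there, Msx2 being added. The median log2 difference of the 8 genes was -0.03 in sorted cells and 0.07 in whole tissue, beside 0.00 and 0.01 over all genes. Both comparisons and those that follow share libraries. A region difference that itself differed between preparations was not found for any of the 8: 0 were called by edgeR, 0 had an unadjusted p below 0.05 and DESeq2 called 0. Over all genes, 1.34% were called for that difference, 1.1% higher and 0.242% lower. Among the 7 genes other than Lmx1b the largest difference of the region effects, sorted minus whole, was -0.54 ± 0.28 for Msx2 (edgeR adjusted p = 0.611); that of Lmx1b rests on 1 and 2 counts and ranged from -2.59 to 3.62 when a library was left out.

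Sorted cells were set against whole tissue to ask where the genes' RNA lay relative to the epithelial fraction. A bulk level cannot tell fewer cells of a type from less RNA per cell. In telencephalic samples Msx1 and Msx2 were higher and Zic4 was lower in sorted cells. Msx1 averaged 39.1 CPM in sorted cells and 27.7 CPM in whole tissue (log2 fold change 0.50 ± 0.13, edgeR adjusted p = 0.0164), and Msx2 averaged 17.4 and 11.2 CPM (0.63 ± 0.20, adjusted p = 0.044). Zic4 averaged 66.6 CPM in sorted cells and 91.5 CPM in whole tissue (-0.46 ± 0.12, adjusted p = 0.015). Zic2 (0.37 ± 0.13, adjusted p = 0.0621), Otx2 (0.25 ± 0.11, 0.127), Lmx1a (-0.33 ± 0.15, 0.125) and Zic1 (0.05 ± 0.12, 0.81) were not called. Lmx1b, with 1 count in sorted and 2 in whole telencephalic libraries, gives no fold. The count of 3 of 8, 2 higher and 1 lower, stood beside 22.4% of all genes called, 9.88% higher and 12.5% lower. The median over the 7 genes other than Lmx1b was 0.25, beside 0.01 over all genes.

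These telencephalic calls depended on single libraries. Leaving out any 1 of the 4 telencephalic libraries took Msx1 to 0.44 to 0.56 (adjusted p 0.0699 to 0.135), Msx2 to 0.47 to 0.84 (0.0796 to 0.278) and Zic4 to -0.52 to -0.40 (0.0564 to 0.107), with none of these 3 passing. Zic2, not called in the fit of all libraries, was called in 4 of 14 alternative settings, with 0.52 without telencephalic sorted replicate 2 (adjusted p = 0.0363), and Lmx1a in 2 of 14. Msx2 also missed the threshold without either hindbrain whole library (0.63, adjusted p = 0.0576). With library totals as the scale the median of all genes itself stood at -0.30. On that scale Msx1 stood at 0.18, Msx2 at 0.31, Zic4 at -0.78 and Lmx1a at -0.65 (edgeR adjusted p = 0.382, 0.244, 0.000603 and 0.00809). Msx1 and Msx2 were thus not called on it, while Zic4 and Lmx1a were. A change of scale shifts all genes nearly alike, so their places relative to the median had to stay and add nothing.

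In hindbrain samples 0 of the 8 genes were called between sorted cells and whole tissue, against 22.1% of all genes (10.2% higher and 11.9% lower). Msx1 averaged 36.6 CPM in sorted cells and 29.6 CPM in whole tissue (0.31 ± 0.13, edgeR adjusted p = 0.0983), and Zic4 averaged 68.2 and 81.9 CPM (-0.26 ± 0.12, adjusted p = 0.124); these 2 had an unadjusted p below 0.05, and DESeq2 called 0 of the 8. Lmx1b averaged 7.33 CPM in sorted cells and 8.62 CPM in whole tissue (-0.23 ± 0.36, 95% interval -1.02 to 0.56, adjusted p = 0.69), so its hindbrain level was not shown to differ between preparations. The other 5 genes lay between -0.28 (Lmx1a) and 0.17 (Otx2), and the median of the 8 was 0.06 beside 0.01 over all genes. Msx1 counts per 100 counts of Zic4 were 57.4 and 50.3 in hindbrain sorted cells, against 34.3 and 38.1 in hindbrain whole tissue. In telencephalic samples the ratio was 55.5 and 62.3 in sorted cells, against 31.8 and 28.8 in whole tissue. Sorted libraries were higher than whole libraries in both regions, without overlap and independent of library scaling. The pair joins a gene that was higher with one that was lower in sorted cells, so this ratio is no evidence apart from those differences.

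**Figure D3:**
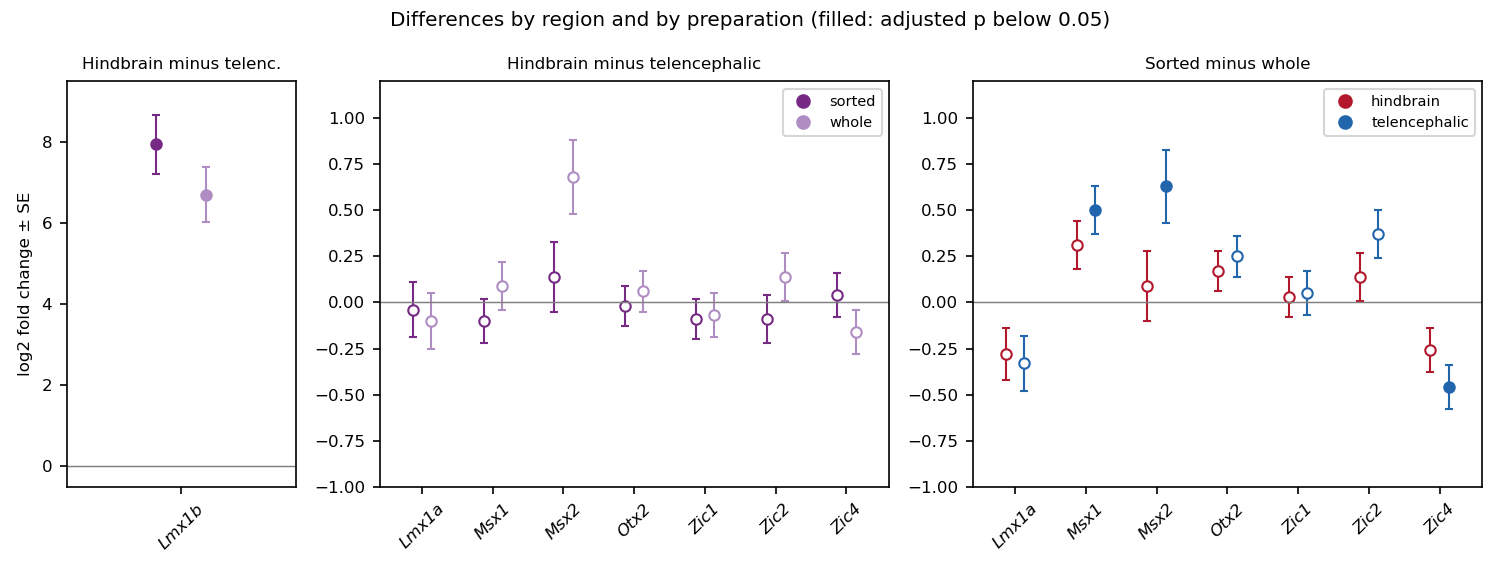
Log2 fold change of each gene between regions and between preparations, with bars of 1 SE of the edgeR fit and filled points where the adjusted p was below 0.05. Lmx1b, on its own axis, is filled in both region comparisons, and among the other 7 genes Msx1, Msx2 and Zic4 are filled in telencephalic sorted minus whole and none is filled elsewhere.

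Markers of other cells moved between the same preparations. In telencephalic samples, 8 of 8 endothelial, 7 of 8 mural, 10 of 13 stromal and 6 of 8 macrophage markers were lower in sorted cells, with medians of -4.50, -2.28, -1.06 and -1.70, while 6 of 12 epithelial markers were higher, with a median of 0.38. In hindbrain samples 8 of 8 endothelial but 3 of 8 mural, 2 of 13 stromal and 0 of 8 macrophage markers were lower (medians -3.85, -0.47, -0.19 and -0.09), and 5 of 12 epithelial markers were higher (median 0.30). The part of these cells in the Msx1, Msx2 and Zic4 differences was not tested. Neuronal, erythroid, and neural progenitor and glial markers were lower for 7 of 8, 3 of 4 and 5 of 7 genes tested in hindbrain sorted cells, and for 5 of 8, 2 of 4 and 4 of 7 in telencephalic sorted cells. With Lmx1b left out, the roof plate genes lay between -0.46 and 0.63 in both regions.

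**Figure D4:**
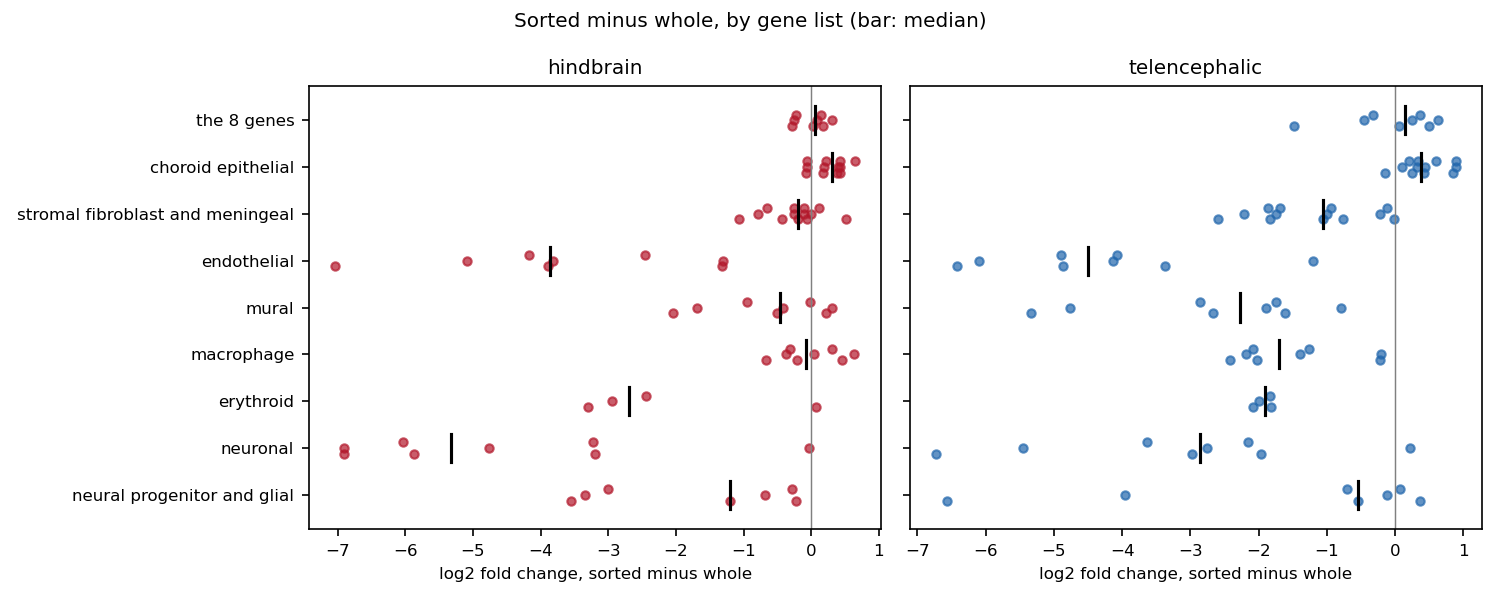
Log2 fold change, sorted minus whole, of the 8 genes and of markers of 8 cell classes, with 1 dot per tested gene and a black bar at the median of each list, for hindbrain (left) and telencephalic (right) samples. The 8 genes centre on 0.06 and 0.15 whereas endothelial markers centre on -3.85 and -4.50; the telencephalic dot of the 8 genes at -1.48 is Lmx1b, which rests on 1 and 2 counts.

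Regional differences were also found among relatives of the 8 genes. Of 14 further LIM-homeodomain, Msx, Otx and Zic genes, 7 passed the filter, and in sorted cells 1 was higher in hindbrain (Msx3) and 2 were lower (Otx1 and Lhx2). The same counts and names held in whole tissue. Over all genes tested, 15.2% were called in sorted cells and 5.79% in whole tissue. Msx3, the dorsal neural tube member of the Msx family, had 2 and 26 counts in hindbrain sorted cells, against 0 and 0 in telencephalic sorted cells, and 62 and 44 counts in hindbrain whole tissue, against 1 and 0 in telencephalic whole tissue. Msx3 passed the filter on low counts through its hindbrain libraries alone, so its calls add nothing to these counts. The calls (edgeR adjusted p = 0.0384 in sorted cells and 0.0247 in whole tissue) were lost without hindbrain sorted replicate 2 and without hindbrain whole replicate 1, among other libraries. Lhx2, a LIM-homeodomain selector of the cortex that represses hem fate in mice, averaged 0.549 CPM in hindbrain sorted cells and 3.88 CPM in telencephalic sorted cells (-2.81 ± 0.49, adjusted p = 0.00195). In whole tissue it averaged 0.707 CPM in hindbrain and 3.21 CPM in telencephalic samples (-2.16 ± 0.49, adjusted p = 0.0208), and that call was lost without any 1 of those 4 libraries (0.0623 to 0.217).

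Cofactors of LIM-homeodomain proteins had median region differences of 0.06 in sorted cells and 0.17 in whole tissue, beside 0.00 and 0.01 over all genes. Of 10, Lmo2 was higher (7.06 CPM in hindbrain and 3.69 CPM in telencephalic sorted cells, 0.94 ± 0.24) and Ssbp2 lower (96.0 and 131 CPM, -0.45 ± 0.11), each with an edgeR adjusted p of 0.0178, beside 15.2% of all genes called in sorted cells, and 0 of 10 were called in whole tissue, beside 5.79%. The Lmo2 call was lost in a fit of the 4 sorted libraries alone (adjusted p = 0.101) and the Ssbp2 call with library totals (0.183), and both were lost without hindbrain sorted replicate 1 or either telencephalic sorted replicate. Ldb1, the core LIM-binding partner, averaged 68.9 CPM in hindbrain sorted cells, 67 in telencephalic sorted cells, 59.5 in hindbrain whole tissue and 53.1 in telencephalic whole tissue, and was not called.

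Among 18 roof plate and hem signals, of which 15 were tested, 4 were higher and 5 were lower in hindbrain sorted cells, and 2 were higher and 4 lower in hindbrain whole tissue (median differences -0.35 and -0.11). The shares of all genes called in these comparisons were 15.2% and 5.79%. Gdf7, a BMP-family ligand of the roof plate, had 74.4 and 75.6 CPM at its lowest and highest in hindbrain sorted cells, against 0.0756 and 1.05 CPM in telencephalic sorted cells (7.34 ± 0.47, edgeR adjusted p = 1.57e-06). This fold was 6.14 without telencephalic sorted replicate 1 and 9.85 without telencephalic sorted replicate 2. Gdf7 passed the filter on low counts through its hindbrain libraries alone, so its call adds nothing to these levels. Bmp4, a roof plate BMP and inducer of Msx genes, averaged 46.6 CPM in hindbrain sorted cells and 47.5 CPM in telencephalic sorted cells, and 59.2 CPM in hindbrain whole tissue and 66.9 CPM in telencephalic whole tissue, and was not called. Of other BMP ligands, Bmp5 was lower in hindbrain in both preparations (-0.78 ± 0.16 in sorted cells and -0.88 ± 0.16 in whole tissue). Bmp2 was higher in hindbrain sorted cells (2.84 CPM, against 0.107 CPM in telencephalic sorted cells, 4.55 ± 0.66, edgeR adjusted p = 0.000554), a fold that rests on 5 telencephalic counts. Bmp6 was lower in hindbrain sorted cells (-0.46 ± 0.11). In whole tissue neither Bmp2 (2.4 CPM in hindbrain and 1.48 CPM in telencephalic samples, 0.72 ± 0.51, edgeR adjusted p = 0.569) nor Bmp6 (-0.11 ± 0.11, 0.706) was called. The region calls of these BMP ligands were not run in the alternative settings. Rspo3, an enhancer of Wnt signals, was lower in hindbrain sorted cells (2.59 CPM, against 14.1 CPM in telencephalic sorted cells; -2.44 ± 0.27, edgeR adjusted p = 6.43e-05) and in hindbrain whole tissue (3.08 against 13.3 CPM; -2.10 ± 0.27, 0.000508). Of 19 other dorsal midline regulators, 15 were tested, with median differences of 0.03 in sorted cells and 0.18 in whole tissue. In sorted cells 3 were higher and 3 lower in hindbrain, beside 15.2% of all genes called. In whole tissue 1 of the 15 was higher, near the 5.79% of all genes called. This was Rfx4, a winged-helix factor needed for dorsal midline structures in mice. Rfx4 averaged 2.81 CPM in hindbrain sorted cells and 0.219 CPM in telencephalic sorted cells (3.69 ± 0.47, adjusted p = 0.000175), and 6.64 CPM in hindbrain whole tissue and 0.69 CPM in telencephalic whole tissue (3.20 ± 0.41, 0.00046). Mural, stromal and macrophage markers were also higher in hindbrain sorted cells (7 of 8, 11 of 13 and 8 of 8, with medians of 2.13, 2.08 and 1.92), as were 3 of 8 endothelial and 4 of 7 progenitor and glial markers (medians 0.90 and 0.58; 2 of 7 progenitor markers were lower). In hindbrain whole tissue 3 of 8 neuronal, 6 of 13 stromal and 2 of 7 progenitor and glial markers were higher (medians 1.36, 0.60 and 0.33). The part of these cells in the regional differences of the listed genes was not tested.

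The genes whose levels followed each factor most closely over the 8 libraries were ranked by Pearson's r of log2 CPM. Such values describe 8 libraries that fall in 4 groups by region and preparation and differ in depth, with total counts of 8849053 to 31613434. Which libraries shared a batch is not known here. Lmx1b was followed by Esrrg (0.997), an orphan nuclear receptor, Spire2 (0.991), an actin nucleator, and Hadhb (0.991), a subunit of the mitochondrial trifunctional protein. Esrrg averaged 149 ± 6.0 CPM in hindbrain sorted cells and 36.5 ± 3.8 CPM in telencephalic sorted cells, and 147 ± 18 CPM in hindbrain whole tissue and 37.7 ± 3.2 CPM in telencephalic whole tissue (SD, n = 2 each), so it was detected in telencephalic libraries, where Lmx1b lay at or under the floor. Msx1 was followed by Kpna1 (0.987), Mir1931 (0.987) and Fam84b (0.986), and Msx2 by Ccbl2 (0.982), Zfp518b (0.971) and Gapdh (0.960). Mir1931 averaged only 0.35 CPM in hindbrain whole tissue and 0.288 CPM in telencephalic whole tissue, near the floor of 3 counts. For Zic4 the closest were Gnl1 (0.982), Tnc (0.977) and Nrsn2 (0.976), for Zic1 Gpr180 (0.965), Pptc7 (0.943) and Madcam1 (0.940), and for Zic2 Mrps35 (0.975), Rbm14 (0.975) and Atp5g3 (0.966). Lmx1a was followed by Zfp740 (0.966), Pam (0.956) and Arhgap8 (0.941), and Otx2 by Golga5 (0.970), Vpreb1 (0.965) and Tmem120a (0.961). Among the 8 genes themselves, r was 0.90 for Msx1 with Otx2, -0.96 for Msx1 with Zic4, -0.93 for Otx2 with Zic4, and -0.12 for Lmx1a with Lmx1b.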

How the data were processed

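RNA-seq gene counts of 8 libraries, 2 per group, were analysed. Per the labels' protocols, RNA was isolated with the RNeasy Micro kit, pre-amplified as cDNA (Ovation RNA-seq System V2) and sequenced as paired-end TruSeq v2 libraries, which mark no strand. The counts were deposited by the authors as whole numbers per gene symbol, not normalized. Per the submitters' processing notes, the tools were HTSeq, TopHat2 2.0.4 with Bowtie2 2.0.5, CASAVA 1.8.2 and DESeq 1, on the build mm9; which annotation, strand setting and release of HTSeq served is not given in these sources. Every value column matched 1 sample.

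Genes were kept by filterByExpr (minimum count 10, minimum total 15), and libraries were scaled by TMM. In edgeR 4.0.16 (R 4.3.3, limma 3.58.1) 1 quasi-likelihood fit took in all 8 libraries with a mean for each of the 4 groups, which pooled the spread over groups. A gene was called at a Benjamini-Hochberg adjusted p below 0.05 over all genes tested. CPM is on the TMM-scaled size, errors of fold changes are SE of the fit, and means carry the SD of 2 libraries. P-values measure the spread between these samples. Reads were pre-amplified and had no molecular identifiers, so counting intervals and the floor of 3 counts cover counting error only. The fit was tested on simulated data. Alternatives were another scaling, library totals, no filter, DESeq2 1.42.0, the 4 libraries of a comparison alone, no Ttr and Rn45s, leaving out each library, and brain as a replicate block. Same-numbered regions came from the same brains, per the labels' design text, and their deviations from group means correlated at 0.14 in sorted and 0.19 in whole samples over 15698 genes.

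Named genes are all 8, up to 4 called members per list and comparison by adjusted p (some further members to show a contrast, chosen after their values were seen), and the 3 genes most like each by Pearson's r of log2 CPM (prior count 2; unnamed and predicted genes left out). The members and lists were chosen with earlier results of these data known. 1 gene of a list is not reported here. The added alternatives for list genes were chosen after seeing the data. Transcript lengths are from GENCODE M21 (GRCm38), and promoter windows, found for 7 of the 8 genes, from RefSeq (GRCm38.p6); no coordinates were converted from mm9.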

Additional observations from a re-analysis of the deposited data

Results flagged for a closer look

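Among the 8 roof plate genes, no region effect was found to differ between preparations, but 3 genes of the related lists differed by the interaction test of edgeR. Over all genes, 1.34% were called by that test. Wnt5a, a non-canonical Wnt ligand, had a hindbrain minus telencephalic log2 fold change of 2.40 in sorted cells and 1.56 in whole tissue, a difference of 0.84 ± 0.16 (adjusted p = 0.0196). By the same test the region difference of 5 of 8 mural, 2 of 13 stromal, 2 of 8 endothelial and 1 of 8 macrophage markers was larger in sorted cells, with list medians of 2.11, 0.99, 0.86 and 1.60, and their part in the Wnt5a difference was not tested. Rspo2, an enhancer of Wnt signals, had -5.22 in sorted cells and -3.71 in whole tissue, a difference of -1.51 ± 0.29 (adjusted p = 0.022). Pax6, a homeodomain factor of neural progenitors, had -2.45 in sorted cells and 0.92 in whole tissue, a difference of -3.37 ± 0.70 (adjusted p = 0.0358). In whole tissue its region difference was not called and the regions overlapped. Pax6 averaged 0.84 CPM in hindbrain sorted cells and 6.72 CPM in hindbrain whole tissue, where its libraries held 2.88 and 10.6 CPM. Telencephalic sorted cells and whole tissue averaged 4.59 and 3.59 CPM. In hindbrain sorted cells and hindbrain whole tissue, neuronal markers summed to 31.9 to 34.7 CPM and 88.3 to 112 CPM. Counts were present for 8 of 8 neuronal markers in both groups, although Snap25 had 2 counts and Neurod1 3 counts in hindbrain sorted cells. Most of the sorted sum was Syt1, at 29.1 CPM in hindbrain sorted cells and 29.8 CPM in hindbrain whole tissue, while Dcx averaged 3.43 and 32.3 CPM and Stmn2 0.183 and 12.4 CPM. The part of neural cells in the Pax6 difference was not tested. The Wnt5a call was kept in 9 of 14 alternative settings and the Rspo2 call in 7 of 14; the losses came from leaving out a library, with adjusted p of up to 0.147 and 0.129. The Pax6 call was lost when any 1 of 6 libraries was left out (adjusted p of up to 0.208), and without hindbrain whole replicate 1 the value was -2.14 (adjusted p = 0.156).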

How the results depend on the processing

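Lmx1b was called between regions in 15 of 15 alternative settings in each preparation. This gene had to differ once it had passed the filter, so these calls add nothing to its counts. The 8 genes gave 0 calls for the difference of the region effects in every setting tried. With brain as a replicate block, which uses the pairing of regions, 1 of the 8 genes was called in sorted cells (2943 genes in all) and 2 in whole tissue (1195 genes, Msx2 added), and 0 for the difference (337 genes, against 211); the block changed no other call of the 8, and it could not be fitted for sorted minus whole, since preparations are taken to come from different brains. In whole tissue the same 2 were also called with library totals, with no filter, with DESeq2 and with the 4 libraries alone (2 each), and 1 to 2 when a library was left out. Between telencephalic preparations 5 were called with the 4 libraries alone, where Lmx1b was filtered out, and 0 to 4 when a library was left out (0 without telencephalic sorted replicate 1 or either telencephalic whole replicate, 1 without telencephalic sorted replicate 2). Between hindbrain preparations library totals gave 2 calls, Lmx1a and Zic4. Library totals moved the median of all genes to 0.20 (region, sorted), 0.09 (region, whole), -0.19 and -0.30 (sorted minus whole, hindbrain and telencephalic) and 0.12 (difference), and the share of calls that were higher to 83.5%, 70.7%, 20.1% and 10.5% in the first 4 comparisons, against 59.7%, 57.6%, 46.3% and 44.1%. This turned the sign of uncalled genes: between regions in sorted cells Lmx1a 0.17, Msx1 0.11, Otx2 0.18, Zic1 0.11 and Zic2 0.11, in whole tissue Zic1 0.01; between hindbrain preparations Msx2 -0.12, Otx2 -0.02, Zic1 -0.17 and Zic2 -0.06, between telencephalic ones Otx2 -0.07 and Zic1 -0.27; and for the difference Otx2 0.05 and Zic1 0.11. Signs also turned when 1 library was left out, always in uncalled genes: between regions in sorted cells Lmx1a (-0.11 to 0.04), Msx2 (-0.12 to 0.36), Otx2 (-0.14 to 0.08), Zic2 (-0.25 to 0.08) and Zic4 (-0.05 to 0.11), in whole tissue Lmx1a (-0.28 to 0.12), Otx2 (-0.01 to 0.13) and Zic1 (-0.15 to 0.01); between hindbrain preparations Lmx1b (-0.64 to 0.33), Msx2 (-0.17 to 0.30) and Zic1 (-0.06 to 0.11), between telencephalic ones Lmx1b (-3.85 to 2.36) and Zic1 (-0.03 to 0.13); and for the difference Lmx1a (-0.16 to 0.24), Lmx1b (-2.59 to 3.62), Otx2 (-0.19 to 0.02) and Zic1 (-0.10 to 0.06). Genes called over the whole table, with the 4 libraries alone, were 1460 (region, sorted, against 2383), 1587 (region, whole, against 909) and 2236 (hindbrain preparations, against 3472), fits with fewer samples; the difference gave 441 with no filter and 335 with DESeq2. Leaving out 1 library gave 1051 to 3253 (region, sorted), 316 to 1341 (region, whole), 1691 to 3873 and 1519 to 4501 (hindbrain and telencephalic preparations, the second against 3517) and 58 to 473 (difference); a lone sample was then assumed to vary like the other groups. The cause of these shifts was otherwise not tested. Depth limits Lmx1b and Msx3 in telencephalic libraries, where a count of 3 equals 0.113 to 0.314 CPM.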

Other observations

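Between preparations the related lists moved in both directions. Foxj1 and Rfx3, regulators of motile cilia, were higher in telencephalic sorted cells: Foxj1 averaged 328 CPM in sorted cells and 200 CPM in whole tissue (log2 fold change 0.71 ± 0.14, edgeR adjusted p = 0.00409), and Rfx3 averaged 620 and 481 CPM (0.36 ± 0.10, 0.0245). In hindbrain samples Rfx3 averaged 569 CPM in sorted cells and 421 CPM in whole tissue (0.43 ± 0.10, edgeR adjusted p = 0.0107). Foxj1 was higher there as well, at 329 and 227 CPM (0.54 ± 0.14, edgeR adjusted p = 0.018), a call not run in the alternative settings. With library totals as the scale the Rfx3 calls were lost in both regions (0.24 and 0.05 log2 units, adjusted p = 0.204 and 0.822 for hindbrain and telencephalic samples) and so was the telencephalic Foxj1 call (0.39, 0.0593). The telencephalic Rfx3 call was also lost without any 1 telencephalic library (adjusted p of up to 0.148), the telencephalic Foxj1 call without telencephalic whole replicate 2 (0.0634) and the hindbrain Rfx3 call without hindbrain whole replicate 2 (0.0945). Ldb2, a LIM-binding cofactor, was lower in sorted cells of both regions: it averaged 21.4 CPM in sorted cells and 54.8 CPM in whole tissue of the hindbrain (-1.36 ± 0.12, 1.25e-05) and 25.9 and 62.6 CPM in telencephalic samples (-1.27 ± 0.12, 1.74e-05). Of the endothelial markers 8 of 8 were lower in each of these comparisons, with medians of -3.85 and -4.50 and sums of 156 to 157 CPM against 605 to 644 CPM in hindbrain and 113 to 122 CPM against 571 to 599 CPM in telencephalic samples, and their part in the Ldb2 difference was not tested. Bmp7 was lower in sorted cells as well, at 122 CPM against 194 CPM in hindbrain whole tissue (-0.66 ± 0.13, 0.00382) and 158 CPM against 247 CPM in telencephalic whole tissue (-0.65 ± 0.13, 0.0043; 0.0648 without telencephalic sorted replicate 1). Hes1, a Notch target, averaged 44.2 CPM in hindbrain sorted cells and 15.8 CPM in hindbrain whole tissue (1.49 ± 0.37, 0.0136), a call lost without hindbrain sorted replicate 2 (0.44, adjusted p = 0.108) and without either hindbrain whole replicate (0.0534 and 0.07). The preparations also differed by strain label and are taken to differ by brain, neither of which can be told apart from the sort.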
